A study of Homo sapiens with 8 samples.

Results

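KBM5, a human cell line established from chronic myeloid leukaemia in blast crisis, was measured on 4 expression arrays, 1 for each of 4 treatments. They were chosen by sample label and are 4 of the 8 arrays of the series, which holds the same treatments of K562, another such line. The treatments were imatinib (IM), OR21 followed by IM (the combination), no drug (control) and OR21 alone. IM was given at 1000 nM and RNA was taken 24 hours later, and OR21, which the series title describes as a demethylating agent, was given at 100 nM for 3 days. The label of the combination leaves its OR21 dose blank, so that dose is the one in the treatment protocol. No other genotype, transgene or selection is given for either line. The question was what IM does in KBM5, and it was read from 2 array pairs that share no array, IM minus control and combination minus OR21. A gene is called higher or lower where both pairs had the same sign and a fit across all genes (limma, Benjamini-Hochberg adjustment over 17687 genes) gave an adjusted p under 0.05. Each treatment had 1 array, so the pairs stand in for repeats. The p-values then measure the spread between pairs, on the assumption that both drugs add on the log2 scale. That spread is pooled over the pairs of KBM5 and of K562 and moderated across all genes. So few arrays limit how precise each value is.

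Chronic myeloid leukaemia cells carry the fusion kinase BCR-ABL1, which keeps STAT5, RAS-ERK and PI3K-AKT signalling on without a growth factor. Imatinib occupies the ATP pocket of ABL1 and also blocks the receptors KIT, CSF1R and those for PDGF. These signals hold FOXO transcription factors out of the nucleus and feed MYC, which drives the genes of nutrient uptake, nucleotide synthesis and ribosome assembly. Myeloid cells that leave this programme can go on to express the surface receptors, sensors and enzymes of monocytes and granulocytes.

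IM changed a large part of the KBM5 transcriptome. Of 17687 genes, 1912 (10.8%) were called higher with IM and 1868 (10.6%) lower, together 21.4%. In the deposited intensities, a gene was taken as above background where it exceeded 95% of its array's negative controls, a level that lay at 229 with IM, 194 with the combination, 263 in control and 189 with OR21. Between 5874 and 6668 genes were above it on the KBM5 arrays. Over the 5247 genes above background on all 4, 968 were called higher and 1057 lower. Another 220 genes were called higher from background on both arrays without IM, and 251 were called lower to background on both arrays with IM. For these, sizes are given as bounds ("at least"). Genes above background on only some arrays of a side (318 called higher, 291 lower) are given with their measured difference, whose size is not exact, and the 406 higher and 269 lower calls among genes at background on all 4 arrays are given no size. Both pairs differed at least 2-fold and with the same sign for 883 genes higher (4.99%) and 1096 lower (6.20%).

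The pairs gave much the same picture. Over the measured genes the differences of both pairs had a Pearson r of 0.89 and a Spearman rho of 0.86 across genes, which are not independent replicates, and 81.6% had the same sign. One measured gene, the histamine receptor gene HRH2, moved at least 2-fold in opposite directions, at 584 with IM and 236 with the combination, against 278 in control and 528 with OR21. Unless stated otherwise, differences below are the mean log2 difference of the pairs, with IM minus without, ± SE, and values per array are intensities.

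**Figure D1:**
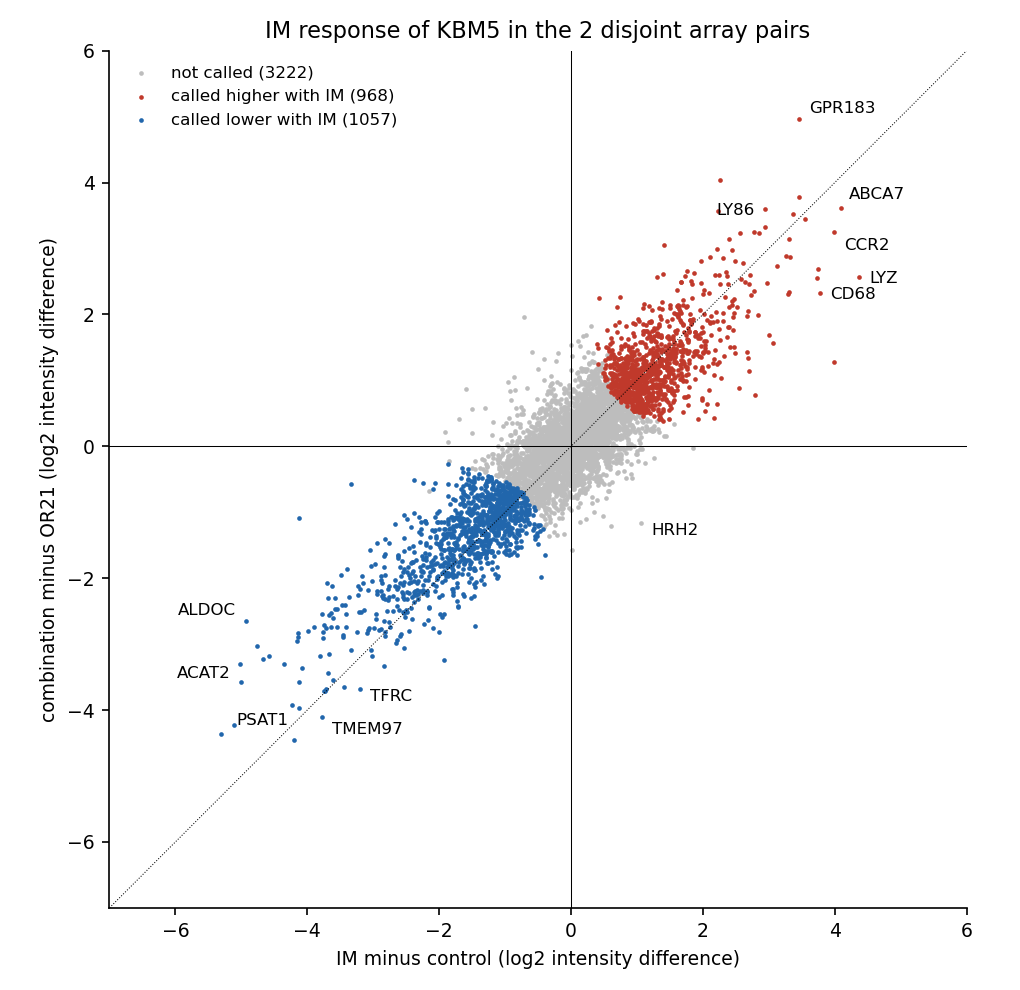
IM response of each of the 5247 genes above background on all 4 KBM5 arrays. The x axis is the log2 intensity difference IM minus control and the y axis combination minus OR21, with 1 point per gene, red for the 968 called higher, blue for the 1057 called lower and grey for the rest. The points lie along the dotted line of equality, with HRH2 at 1.07 and -1.16 away from it.

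Some markers of myeloid cells were present. The leukocyte genes PTPRC, SPN and LCP1 were above background on all 4 arrays. So were 3 of 7 myeloid markers, TYROBP, SPI1 and CEBPA, while 1 of the 7 was above it on none. The summed level of the 7 myeloid markers was 66673 with IM and 131010 with the combination, against 16183 in control and 40075 with OR21. MPO, the myeloperoxidase of neutrophil granules, was above background only after OR21, at 35.9 with IM and 5282 with the combination, against 65.8 in control and 11442 with OR21. Of the other cell types considered, 0 of 4 erythroid markers, 0 of 3 megakaryocytic, 0 of 13 lymphoid and 0 of 4 fibroblast markers were above background on all 4 arrays. Of 11 epithelial markers 1 was, the keratin gene KRT8, at 556 with IM and 341 with the combination, against 373 in control and 504 with OR21, which was not called (adjusted p = 0.996). The summed level of the 13 lymphoid markers was 1007 with IM and 844 with the combination, against 731 in control and 839 with OR21.

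Surface receptors of monocytes and granulocytes formed one of the largest blocks that rose. Of 28 measured, 17 were called higher and 0 lower, with a median difference of 1.46 beside 0.03 over all genes tested. Among these calls, 2 came from genes at background on all 4 arrays. CSF1R, the receptor for macrophage colony-stimulating factor and itself an imatinib target, read 2101 with IM and 1005 with the combination, against 42.7 in control and 63.6 with OR21. Both arrays without IM were at background and both with IM far above it, which makes it at least 6.52-fold higher (adjusted p = 1.33e-05). CSF3R, the G-CSF receptor, stood at 2802 with IM and 2395 with the combination, against 236 in control and 224 with OR21 (3.49 ± 0.27), and was above background on 1 of 2 arrays without IM. CLEC12A, a C-type lectin of myeloid cells, stood at 1512 with IM and 4641 with the combination, against 116 in control and 722 with OR21 (3.19 ± 0.28). It was at background in control alone. The tetraspan gene MS4A6A rose by 4.59 ± 0.42 and the costimulatory ligand gene CD86 by 3.73 ± 0.30, both starting near or below background. CD86 passed background only with the combination, at 1056.

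Monocyte genes outside that list were among the highest of the whole response. GPR183, a receptor for oxysterols that guides immune cell migration, read 3574 with IM and 6033 with the combination, against 325 in control and 193 with OR21. Both levels with IM lay far above both without (4.21 ± 0.36, adjusted p = 3.02e-05). CCR2, the receptor that draws monocytes to CCL2, read 17586 with IM and 2246 with the combination, against 1108 in control and 235 with OR21 (3.62 ± 0.30). The lysosomal glycoprotein gene CD68 read 16060 with IM and 22125 with the combination, against 1176 in control and 4424 with OR21 (3.05 ± 0.33). LY86, which encodes a partner of the Toll-like receptor homolog CD180, read 23066 with IM and 38643 with the combination, against 3008 in control and 3173 with OR21 (3.27 ± 0.33). For each of these the lowest array with IM exceeded the highest without. CD36, a scavenger receptor for lipids, read 2149 with IM and 1722 with the combination, against 98.2 in control and 94.4 with OR21, at least 8.63-fold higher, and the inflammasome sensor gene NAIP was at least 11-fold higher. GLIPR1, which encodes a CAP-family protein, had the largest bound of all genes that came up from background, with 5396 with IM and 6218 with the combination, against 206 in control and 146 with OR21, at least 26-fold higher (adjusted p = 5.53e-06).

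Sensors and receptors of the same lineage were also higher, each group in part. Of 20 innate immune sensors and adaptors, 8 were called higher and 0 lower. The endotoxin receptor gene TLR4 rose by 2.36 ± 0.27, the shared adaptor gene MYD88 by 2.01 ± 0.24, and the inflammasome gene NLRP3 by 1.67 ± 0.26. TLR6 was at least 1.78-fold higher. Of 20 chemotactic receptors and chemokines, 9 were called higher and 1 lower, and the receptor for platelet-activating factor, PTAFR, was at least 2.51-fold higher. Of 19 cytokine receptors, 9 were called higher and 0 lower. IL10RA, a chain of the IL-10 receptor, read 1048 with IM and 1136 with the combination, against 86.5 in control and 95.4 with OR21, at least 4.89-fold higher. IL13RA1 rose by 3.13 ± 0.26 and the IL-6 receptor gene IL6R by 2.08 ± 0.26. Of 6 subunits of the phagocyte NADPH oxidase, the superoxide source of neutrophils, 2 were called higher, led by NCF4 (2.31 ± 0.24). Over all genes tested 10.8% were called higher.

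Myeloid transcription factors gave 7 calls higher and 0 lower among 17, with a median of 0.69. Under quantile scaling 8 were called higher and 2 lower. Of the 7 calls 1 was for a gene at background on all 4 arrays. CEBPA, the factor that commits progenitors to the granulocyte and monocyte line, stood at 3033 with IM and 3397 with the combination, against 1593 in control and 1305 with OR21 (1.15 ± 0.25). IRF8, a monocyte factor, stood at 29304 with IM and 9678 with the combination, against 19984 in control and 2834 with OR21 (1.16 ± 0.35). Its combination array lay below control, so the direction holds within each pair but not across the 4 arrays. With the combination or OR21 array left out, IRF8 and CEBPA were not called (adjusted p = 0.409 and 0.0768). TFEC, a macrophage factor of the MiT family outside that list, rose by 3.45 ± 0.23. Granule proteins split. LYZ, the lysozyme gene, reached 254950 with IM and 185900 with the combination, against 12342 in control and 31218 with OR21 (3.47 ± 0.37), and CST3, AZU1 and RNASE2 rose by 1.66 ± 0.24, 1.29 ± 0.25 and 1.35 ± 0.29. PRG2, the eosinophil major basic protein gene, fell by 3.05 ± 0.28, at 35.8 with IM and 1190 with the combination, against 209 in control and 14082 with OR21. In all 6 of 18 granule genes were called higher and 3 lower (1 under median centring), MPO among them (-0.99 ± 0.27), whose call was lost with any 1 KBM5 array left out (adjusted p = 0.065 without the IM or control array and 0.134 without the combination or OR21 array). RNASE2 was not called without the IM or control array (adjusted p = 0.0938). Among the granule calls, 2 came from genes at background on all 4 arrays.

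**Figure D2:**
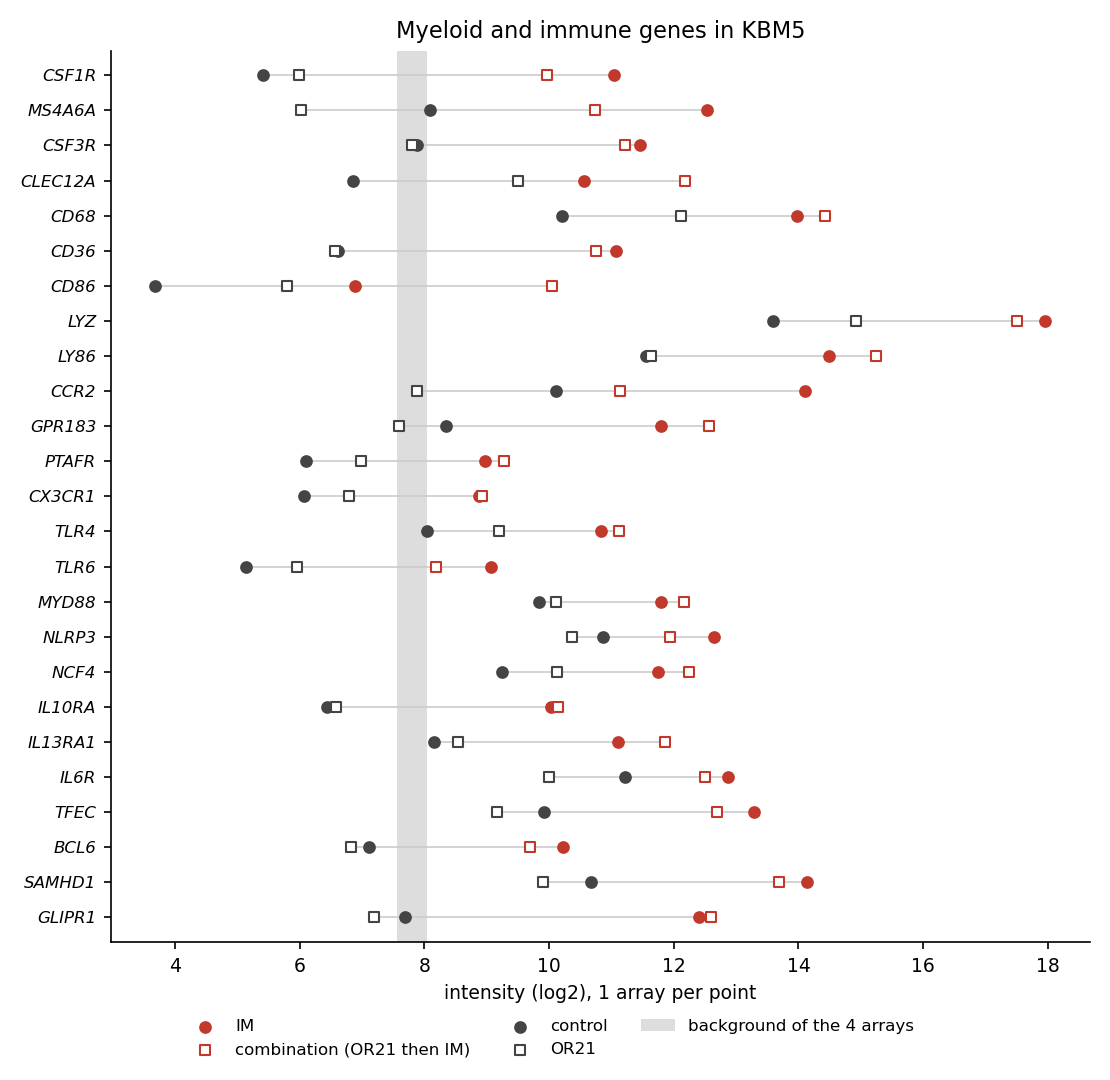
Intensity (log2 axis) of 25 myeloid and immune genes on the 4 KBM5 arrays, 1 point per array. Red points are the arrays with IM (filled for IM, open for the combination), dark points those without (filled for control, open for OR21), and the grey band spans the background of the 4 arrays. In each row both red points lie right of their dark partner of the same shape. Both dark points lie within or below the band in CSF1R, CSF3R, CD36, CD86, PTAFR, CX3CR1, TLR6, IL10RA, BCL6 and GLIPR1.

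The promoters of 3 genes that rose are shown because each holds a match to one of the 7 short motifs searched on both strands. The windows are the 250 bases before the start of the gene (RefSeq, GRCh38.p14), printed in the direction of the gene, with matches in capitals. The motifs were E-box CACGTG, STAT TTCNNNGAA, forkhead TGTTTAC, cell cycle homology element TTTGAA, E2F TTCCCGC and TTGGCGC, and the PU.1 core GAGGAA. PU.1 is the product of SPI1. Both genes of the monocyte group hold a PU.1 core, on the minus strand in CD36 and on the plus strand in LY86, which also holds the cell cycle homology element on its minus strand. TXNIP, of the growth-restraint genes described below, holds the forkhead motif and 2 PU.1 cores, all on the minus strand.
CD36, chr7:80601957-80602206, plus strand: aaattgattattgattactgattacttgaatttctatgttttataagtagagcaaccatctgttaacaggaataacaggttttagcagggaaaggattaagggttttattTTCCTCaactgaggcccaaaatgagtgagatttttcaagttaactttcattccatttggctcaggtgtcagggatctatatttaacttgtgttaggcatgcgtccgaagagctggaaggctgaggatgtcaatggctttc
LY86, chr6:6588470-6588719, plus strand: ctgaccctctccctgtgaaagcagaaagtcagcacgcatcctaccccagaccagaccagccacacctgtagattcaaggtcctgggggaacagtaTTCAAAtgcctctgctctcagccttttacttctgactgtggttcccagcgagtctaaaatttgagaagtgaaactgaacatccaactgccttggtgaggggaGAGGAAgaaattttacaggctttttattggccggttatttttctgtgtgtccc
TXNIP, chr1:145996580-145996829, minus strand: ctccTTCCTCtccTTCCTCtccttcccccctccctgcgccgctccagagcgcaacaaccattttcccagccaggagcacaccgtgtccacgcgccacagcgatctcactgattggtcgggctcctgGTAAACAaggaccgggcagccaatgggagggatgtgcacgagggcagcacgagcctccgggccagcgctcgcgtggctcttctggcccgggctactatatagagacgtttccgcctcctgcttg
The PU.1 core was in 24.7% of the 1564 promoters of genes called higher, 21.7% of 1565 of genes called lower and 23.5% of 14250 in all. The forkhead motif was in 2.6%, 1.5% and 2.2% of the same 3 groups, and the STAT motif in 5.9%, 6.1% and 6.1%. A match is a description of the letters, not a site.

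The targets of the signalling arms below BCR-ABL1 moved in different ways. Of 12 STAT5 targets, 6 were called lower and 0 higher, with a median of -0.67. PIM1, a survival kinase, read 108 with IM and 122 with the combination, against 4088 in control and 3162 with OR21. It was at background on both arrays with IM, which makes it at least 17.1-fold lower (adjusted p = 4.29e-06). CISH, a feedback inhibitor of STAT5, read 946 with IM and 735 with the combination, against 2986 in control and 2805 with OR21 (-1.79 ± 0.26), and the cyclin gene CCND3 fell by 1.67 ± 0.23. Of 19 genes of ERK feedback and early response, 6 were called lower and 3 higher, with 2 of the calls at background on all 4 arrays. DUSP6, the phosphatase that ERK induces against itself, was at least 7.4-fold lower, with 39.2 with IM and 162 with the combination, against 1925 in control and 1265 with OR21, and the ETS-family gene ETV5, which ERK signalling induces, was 4.05-fold lower or more. The immediate early gene FOS moved the other way, at least 1.7-fold higher, with 472 with IM and 306 with the combination, against 114 in control and 79.4 with OR21.

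Adaptors and effectors that BCR-ABL1 works through were higher rather than lower. Of 17, 10 were called higher and 0 lower, with a median of 1.17. The myeloid tyrosine kinase gene FES read 3402 with IM and 1544 with the combination, against 626 in control and 351 with OR21 (2.29 ± 0.25). LYN, a SRC-family kinase, rose by 1.40 ± 0.24 and the ubiquitin ligase gene CBLB, which attenuates kinase signalling, was at least 2.87-fold higher. Of 11 genes listed as imatinib targets or, for BCR, as the fusion partner of ABL1, 3 were called higher and 0 lower: CSF1R, BCR and ABL1. BCR read 1820 with IM and 2542 with the combination, against 809 in control and 1432 with OR21 (1.00 ± 0.24) and ABL1 read 4060 with IM and 3567 with the combination, against 2148 in control and 2203 with OR21 (0.81 ± 0.23). ABL1 was not called with any 1 KBM5 array left out (adjusted p = 0.173 without the IM or control array and 0.0671 without the combination or OR21 array), nor BCR without the IM or control array (adjusted p = 0.117). The probe sets were not shown to tell the fusion transcript from the normal genes. The median of that list was 0.01 and changed sign with the scaling of the arrays, as did that of the 8 genes of imatinib transport and metabolism, of which none was called. The carrier gene SLC22A4 stood at 359 with IM and 404 with the combination, against 329 in control and 339 with OR21.

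FOXO targets and other genes of growth restraint gave the highest share of calls among the groups that rose. Of 24, 19 were called higher and 0 lower, with a median of 1.32 and 2 of the calls at background on all 4 arrays. TXNIP, which binds thioredoxin and limits glucose uptake, read 33628 with IM and 35333 with the combination, against 4922 in control and 3701 with OR21 (3.01 ± 0.24). PNRC1, a nuclear receptor coactivator, read 68444 with IM and 72298 with the combination, against 7841 in control and 10905 with OR21 (2.93 ± 0.24), and YPEL3, which slows growth when it is high, rose by 3.36 ± 0.24. For both genes, both arrays with IM lay far above both without. BCL6, a transcriptional repressor of germinal centre and myeloid cells, was at least 4.46-fold higher.

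Calls among genes of cell death went both ways. BMF, a BH3-only protein that sequesters BCL2 relatives, was at least 3.81-fold higher, with 754 with IM and 958 with the combination, against 124 in control and 128 with OR21, and BCL2L11, which encodes BIM, rose by 0.95 ± 0.25. BNIP3, a mitochondrial death and mitophagy protein, fell by 2.87 ± 0.34 and BID by 1.04 ± 0.26. These were the 2 higher and 2 lower calls among 12 pro-apoptotic members of the BCL2 family. Over all genes tested 10.8% were called higher and 10.6% lower, so counts this small do not set the family apart. Of 6 anti-apoptotic members only MCL1 was called, at 9969 with IM and 14192 with the combination, against 5706 in control and 4918 with OR21 (1.17 ± 0.27). BCL2 itself stood at 648 with IM and 1447 with the combination, against 2442 in control and 1244 with OR21 and was not called (adjusted p = 0.251). It was lower in the pair without OR21 and close to level in the pair after it. Without the IM or control array, BCL2L11 and BID were not called (adjusted p = 0.225 and 0.156), nor MCL1 without the combination or OR21 array (adjusted p = 0.14). Of 17 caspases, death receptors and inhibitors, 8 were called higher, among them the initiator CASP8 (1.83 ± 0.25), its inhibitor CFLAR (1.73 ± 0.27) and the death ligand TNFSF10 (2.11 ± 0.28), and 4 lower, led by cytochrome c, CYCS (-2.74 ± 0.23). Among these caspase and death receptor calls, 2 came from genes at background on all 4 arrays.

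Cell cycle inhibitors and p53 targets were called in both directions. Of 13 CDK inhibitors, D cyclins and G1 kinases, 3 were called higher and 5 lower. CDKN1B, the inhibitor p27, read 1900 with IM and 1959 with the combination, against 1003 in control and 944 with OR21 (0.99 ± 0.23), a call lost without the combination or OR21 array (adjusted p = 0.0703), and the kinase gene CDK4 read 1874 with IM and 1739 with the combination, against 10512 in control and 8688 with OR21 (-2.40 ± 0.23). Of 16 p53 targets, 4 were called higher and 1 lower, beside 10.8% and 10.6% of all genes tested. TP53INP1, which promotes autophagy, was at least 4.15-fold higher, while the nuclease gene AEN was at least 6.61-fold lower. For comparison, 43 of 46 genes of the G1/S transition and replication, 91 of 95 of G2/M, 44 of 50 replication-dependent histone genes and 20 of 26 of cholesterol synthesis were called lower, and none of these was called higher.

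Enzymes that build serine and one-carbon units had a median of -2.52, the lowest of the 52 lists outside the cell cycle, histone and cholesterol genes, with 11 of 13 called lower and 0 higher. PHGDH, which takes the first step from glycolysis to serine, read 114 with IM and 51.1 with the combination, against 4855 in control and 2973 with OR21. Both arrays with IM were at background, which makes it at least 18-fold lower (adjusted p = 7.19e-06). PSAT1, the next enzyme, read 941 with IM and 655 with the combination, against 16423 in control and 10285 with OR21 (-4.05 ± 0.25, adjusted p = 7.13e-06), and MTHFD2, the mitochondrial folate enzyme, read 3402 with IM and 3677 with the combination, against 37242 in control and 26682 with OR21 (-3.16 ± 0.25). Of 17 genes of ATF4 and the unfolded protein response, 5 were called lower and 2 higher, beside 10.6% and 10.8% of all genes tested. ASNS, which makes asparagine, was at least 11.1-fold lower, and XBP1, a factor of the unfolded protein response, fell by 2.55 ± 0.24, while its activator ERN1 was at least 1.23-fold higher.

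Amino acid transporters moved both ways. Of 18, 7 were called lower and 4 higher. SLC38A5, which imports glutamine and serine, read 83.1 with IM and 85.2 with the combination, against 3790 in control and 3491 with OR21, at least 17.3-fold lower. SLC7A5, which brings in leucine and other large neutral amino acids, read 87.9 with IM and 211 with the combination, against 5381 in control and 3321 with OR21 (-4.96 ± 0.44), and the arginine importer SLC7A1 was at least 8.42-fold lower. SLC36A1, a lysosomal exporter of small amino acids, was at least 2.6-fold higher. BCAT1, the cytosolic transaminase of branched-chain amino acids, fell by 3.56 ± 0.23.

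Purine and pyrimidine synthesis fell together. Of 20 genes, 15 were called lower and 0 higher, with a median of -1.48. PRPS1, which makes the ribose phosphate donor, was at least 10.8-fold lower. PPAT, which commits it to purines, read 1142 with IM and 539 with the combination, against 8195 in control and 5448 with OR21 (-3.09 ± 0.25). PAICS, a later purine enzyme, read 2903 with IM and 2862 with the combination, against 38336 in control and 36594 with OR21 (-3.70 ± 0.23), nearly equal on both arrays of each side. CTPS1, which makes CTP, fell by 2.79 ± 0.23. Of 13 polyamine genes, 3 were called lower and 2 higher, beside 10.6% and 10.8% of all genes tested. Spermidine synthase, SRM, read 308 with IM and 838 with the combination, against 5201 in control and 8658 with OR21 (-3.72 ± 0.25), while SAT1, which acetylates polyamines for export, rose by 1.66 ± 0.27.

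Genes of glucose uptake and glycolysis were mostly lower. Of 23 genes of glucose uptake, glycolysis and the pentose phosphate pathway, 13 were called lower and 2 higher, with a median of -0.92. The transporter SLC2A3 read 46.6 with IM and 171 with the combination, against 4698 in control and 1495 with OR21, at least 12.6-fold lower, though its probe set may cross-hybridise with that of its paralog SLC2A14. SLC2A1 read 291 with IM and 409 with the combination, against 2272 in control and 2389 with OR21 (-2.75 ± 0.28). The aldolase gene ALDOC read 294 with IM and 1050 with the combination, against 8965 in control and 6599 with OR21 (-3.79 ± 0.46), and LDHA, which makes lactate, read 6228 with IM and 8553 with the combination, against 68215 in control and 63446 with OR21 (-3.17 ± 0.25). In mitochondria, 10 of 26 nuclear subunits of oxidative phosphorylation were called lower, led by the ATP synthase gene ATP5MC1 (-3.10 ± 0.28), and 4 of 19 genes of the tricarboxylic acid cycle, with 0 and 0 higher. Over all genes tested 10.6% were called lower. Of 17 antioxidant genes and NRF2 targets, 7 were called lower, led by the peroxiredoxin PRDX1 (-3.49 ± 0.25), and 0 higher. TFRC, which takes up transferrin iron, read 2127 with IM and 1543 with the combination, against 19539 in control and 19724 with OR21 (-3.44 ± 0.25). Its control and OR21 values lay close together, far above both values with IM.

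**Figure D3:**
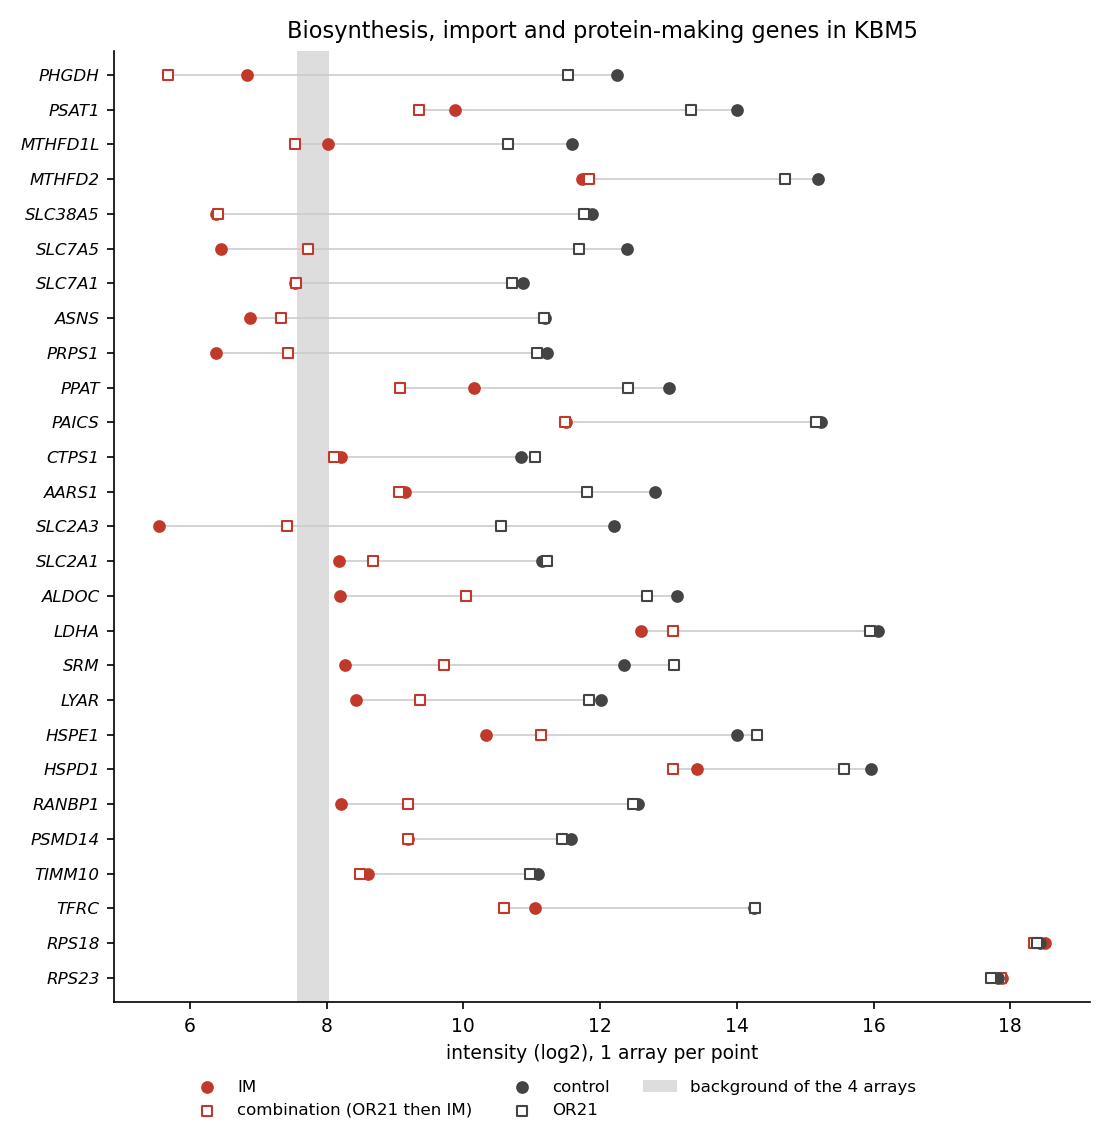
Intensity (log2 axis) of 27 genes of biosynthesis, import and protein making on the 4 KBM5 arrays, with symbols and background band as in the plot of myeloid genes. In 25 rows both red points lie left of the dark ones, while RPS18 and RPS23, cytosolic ribosomal proteins, have all 4 points together at the right end.

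The promoters of 3 genes that fell are shown for their matches, with windows and capitals as above. SRM and PPAT each hold an E-box, the letters bound by MYC with MAX, and UHRF1, a reader of hemimethylated DNA described below, holds the E2F motif TTCCCGC once on each strand.
SRM, chr1:11060019-11060268, minus strand: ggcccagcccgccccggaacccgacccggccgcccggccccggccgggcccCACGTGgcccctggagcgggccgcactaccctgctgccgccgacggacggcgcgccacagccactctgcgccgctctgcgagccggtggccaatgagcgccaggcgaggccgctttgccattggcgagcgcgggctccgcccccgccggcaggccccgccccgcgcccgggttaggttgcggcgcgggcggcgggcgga
PPAT, chr4:56435616-56435865, minus strand: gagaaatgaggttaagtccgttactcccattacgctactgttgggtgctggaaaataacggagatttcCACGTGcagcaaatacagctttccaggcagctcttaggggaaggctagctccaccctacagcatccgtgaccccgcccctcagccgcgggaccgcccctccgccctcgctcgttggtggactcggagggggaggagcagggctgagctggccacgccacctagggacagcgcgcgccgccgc
UHRF1, chr19:4909251-4909500, plus strand: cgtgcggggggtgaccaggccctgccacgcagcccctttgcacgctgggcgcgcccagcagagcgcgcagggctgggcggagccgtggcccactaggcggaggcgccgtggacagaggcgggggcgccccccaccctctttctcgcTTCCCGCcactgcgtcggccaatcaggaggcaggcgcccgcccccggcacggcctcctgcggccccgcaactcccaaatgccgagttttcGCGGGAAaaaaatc
The E-box was in 8.2% of promoters of genes called higher, 8.8% of those called lower and 7.7% of all. For TTCCCGC the shares were 6.6%, 13.9% and 7.6%, for TTGGCGC 3.2%, 5.8% and 3.5%, and for the cell cycle homology element 9.8%, 11.4% and 10.7%.

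Genes of the machinery that makes and folds proteins were called lower in most of the groups measured. Of 28 ribosome biogenesis factors, 23 were called lower and 0 higher (median -1.45), such as the nucleolar regulator LYAR (-3.03 ± 0.29) and the nucleolar phosphoprotein NOLC1 (-2.27 ± 0.25). Of 20 cytosolic ribosomal protein genes, none was called either way, with differences between -0.04 and 0.56 and a median of 0.19. RPS18 read 374130 with IM and 332410 with the combination, against 355930 in control and 342790 with OR21. On all 4 arrays 16 of these 20 genes exceeded 65535, the ceiling of a 16-bit scanner, and whether probes this bright still register a change was not tested. Of 21 translation initiation factors 11 were called lower and 0 higher, led by EIF4EBP1, the translation repressor under mTOR control (-2.54 ± 0.24). Of the 21 differences 14 were negative and 7 positive. The summed level of these factors did not fall, at 442410 with IM and 463300 with the combination, against 416240 in control and 419240 with OR21. Of 16 aminoacyl-tRNA synthetases 10 were called lower and 0 higher, led by the alanine enzyme AARS1, at 569 with IM and 536 with the combination, against 7119 in control and 3598 with OR21.

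Chaperones fell almost as a whole, with 18 of 20 called lower and 0 higher (median -1.75). The mitochondrial chaperonin pair HSPE1 and HSPD1 fell by 3.41 ± 0.24 and 2.53 ± 0.23. HSPE1 read 1293 with IM and 2260 with the combination, against 16409 in control and 20159 with OR21. The cytosolic chaperone gene HSPH1 fell by 3.10 ± 0.23. Of 27 proteasome subunits 20 were called lower and 0 higher (median -1.34), with the deubiquitinase PSMD14 at 584 with IM and 582 with the combination, against 3043 in control and 2771 with OR21 (-2.32 ± 0.24). Of 26 genes of the mitochondrial ribosome and protein import 22 were called lower and 0 higher (median -1.29), with the import pore TOMM40 at 268 with IM and 260 with the combination, against 1622 in control and 1919 with OR21 (-2.74 ± 0.24). Nuclear pore and transport receptor genes gave 19 calls lower of 25 and 0 higher. RANBP1, which sets the RAN cycle of nuclear transport, read 295 with IM and 583 with the combination, against 6030 in control and 5738 with OR21 (-3.83 ± 0.28). Of 23 genes in the list of SR and hnRNP splicing factors, 14 were called lower and 1 higher. The lowest was SNRPB (-2.57 ± 0.27), which itself belongs to neither family.

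Genes of DNA repair were mostly lower. Of 24 genes of homologous recombination, the Fanconi pathway and mismatch repair, 18 were called lower and 1 higher. Of these calls, 6 came from the 8 genes at background on all 4 arrays, and 6 of the 24 genes were above it on all 4. EXO1, the exonuclease of mismatch repair, was at least 7.42-fold lower, and the checkpoint kinase CHEK1 read 183 with IM and 224 with the combination, against 4059 in control and 2682 with OR21 (-4.03 ± 0.27). Chromatin genes split, with 10 of 31 called lower and 7 higher, and 2 of these calls were at background on all 4 arrays. UHRF1, which brings DNMT1 to newly copied DNA, read 329 with IM and 622 with the combination, against 7876 in control and 5612 with OR21 (-3.88 ± 0.32), and EZH2, the methyltransferase of Polycomb, fell by 2.48 ± 0.26. TET2, which oxidises methylcytosine, rose by 2.70 ± 0.35, with 1651 with IM and 1880 with the combination, against 149 in control and 494 with OR21. Of 23 tubulins, actins and partners 11 were called lower and 3 higher, led by TUBB at 6471 with IM and 8458 with the combination, against 54345 in control and 56869 with OR21 (-2.91 ± 0.25), whose close relatives may share its probes.

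Lysosome and autophagy genes rose in part. Of 25 lysosomal genes 12 were called higher and 1 lower (median 0.56). The protease cathepsin D, CTSD, rose by 2.06 ± 0.24, with the IM array at 2619 just above the OR21 array at 2246. Cathepsin B, CTSB, rose by 1.99 ± 0.28 and acid ceramidase, ASAH1, by 1.99 ± 0.28. FUCA1, a lysosomal fucosidase outside that list, rose by 3.08 ± 0.24. Of 28 autophagy genes 14 were called higher and 0 lower (median 0.76). The autophagosome gene GABARAPL1 rose by 3.54 ± 0.28, and the receptor genes CALCOCO1 and SQSTM1 by 3.23 ± 0.23 and 1.89 ± 0.24.

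Immune pathways gave mixed counts, to be set beside the same 10.8% called higher and 10.6% lower over all genes. Of 47 interferon-stimulated genes 15 were called higher and 2 lower (median 0.34), and 23 were at background on all 4 arrays, 5 of them among the calls. IRF9, the DNA-binding part of the interferon response factor, was at least 3.13-fold higher, and SAMD9, an antiviral gene, rose by 2.58 ± 0.25, while BST2, which tethers virions, was at least 1.72-fold lower. SAMHD1, an enzyme that degrades deoxynucleotides and restricts retroviruses, was outside that list and read 17966 with IM and 13151 with the combination, against 1627 in control and 957 with OR21 (3.62 ± 0.24). Of 16 genes of class I antigen presentation 2 were called higher and 4 lower, with HLA-E higher by 1.65 ± 0.31 (adjusted p = 0.0581 without the IM or control array) and the peptide transporter TAP2 at least 3.01-fold lower. Under quantile scaling 4 of the class I genes were called higher and 3 lower, and under median centring 4 and 4. Of 12 class II genes 3 were called higher and 0 lower. Of 15 NF-kB targets 3 were called higher and 1 lower, led by TNFAIP2 (1.86 ± 0.24) and the inhibitor NFKBIA (1.68 ± 0.24). Of these NF-kB calls 2, among them the lower one, were at background on all 4 arrays. Of 19 integrins and adhesion molecules 8 were called higher and 1 lower, with 4 of the calls at background. PECAM1, a junction molecule of leukocytes and endothelium, was at least 2.32-fold higher and SELPLG, the ligand of P-selectin, rose by 1.84 ± 0.29.

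Several of the largest differences fell in none of the lists. ABCA7, a transporter that moves lipids across membranes, read 6032 with IM and 3324 with the combination, against 354 in control and 270 with OR21 (3.86 ± 0.30). CYP1B1, a cytochrome P450 that the aryl hydrocarbon receptor induces, read 5163 with IM and 13113 with the combination, against 439 in control and 1199 with OR21 (3.50 ± 0.24). In both genes each array with IM lay far above both without. The orphan receptor gene GPR141 and the single-stranded DNA-binding protein gene SSBP2 rose by 3.10 ± 0.24 and 3.05 ± 0.25. From background came PLXDC2, a membrane protein with a plexin domain, at least 11.7-fold higher, the G protein subunit gene GNG7, at least 6.25-fold, the acid phosphatase gene ACP3, at least 6.24-fold, and the microtubule-binding FRY, at least 6.23-fold. TMEM97, the sigma-2 receptor, which sterols regulate, read 339 with IM and 214 with the combination, against 4658 in control and 3693 with OR21 (-3.94 ± 0.23). RDH10, which takes the first step from retinol to retinoic acid, read 746 with IM and 1586 with the combination, against 9890 in control and 20791 with OR21 (-3.72 ± 0.24). Its pairs gave close differences from levels that differed between the pairs. The neuropeptide gene GAL, which encodes galanin, read 42.6 with IM and 105 with the combination, against 1560 in control and 3056 with OR21, at least 10.4-fold lower, and FABP5, a carrier of fatty acids, was at least 12.1-fold lower.

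Lists of other blood lineages had some calls, to be set beside 10.8% called higher and 10.6% lower over all genes tested. Of 21 globin, heme and red cell genes, 16 were at background on all 4 arrays, 1 was called higher (ERMAP, at least 1.47-fold) and 1 lower (TFRC). ERMAP was not called with any 1 KBM5 array left out (adjusted p = 0.259 without the IM or control array and 0.0568 without the combination or OR21 array). Of 15 megakaryocyte and platelet genes 3 were called higher, NFE2, THBS1 and FLI1, and 0 lower. Of 15 stem and progenitor genes 2 were called higher, MSI2 and FLT3, FLT3 not without the combination or OR21 array (adjusted p = 0.518), and 1 lower, GATA2 (-1.79 ± 0.30). Among 13 lymphoid markers the only call, IL7R, was at background on all 4 arrays. The epithelial markers had no call, or 1 lower under quantile scaling. The circadian clock gave 2 calls higher and 2 lower among 14, of which only NR1D2, a clock repressor, was above background (1.20 ± 0.23).

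**Figure D4:**
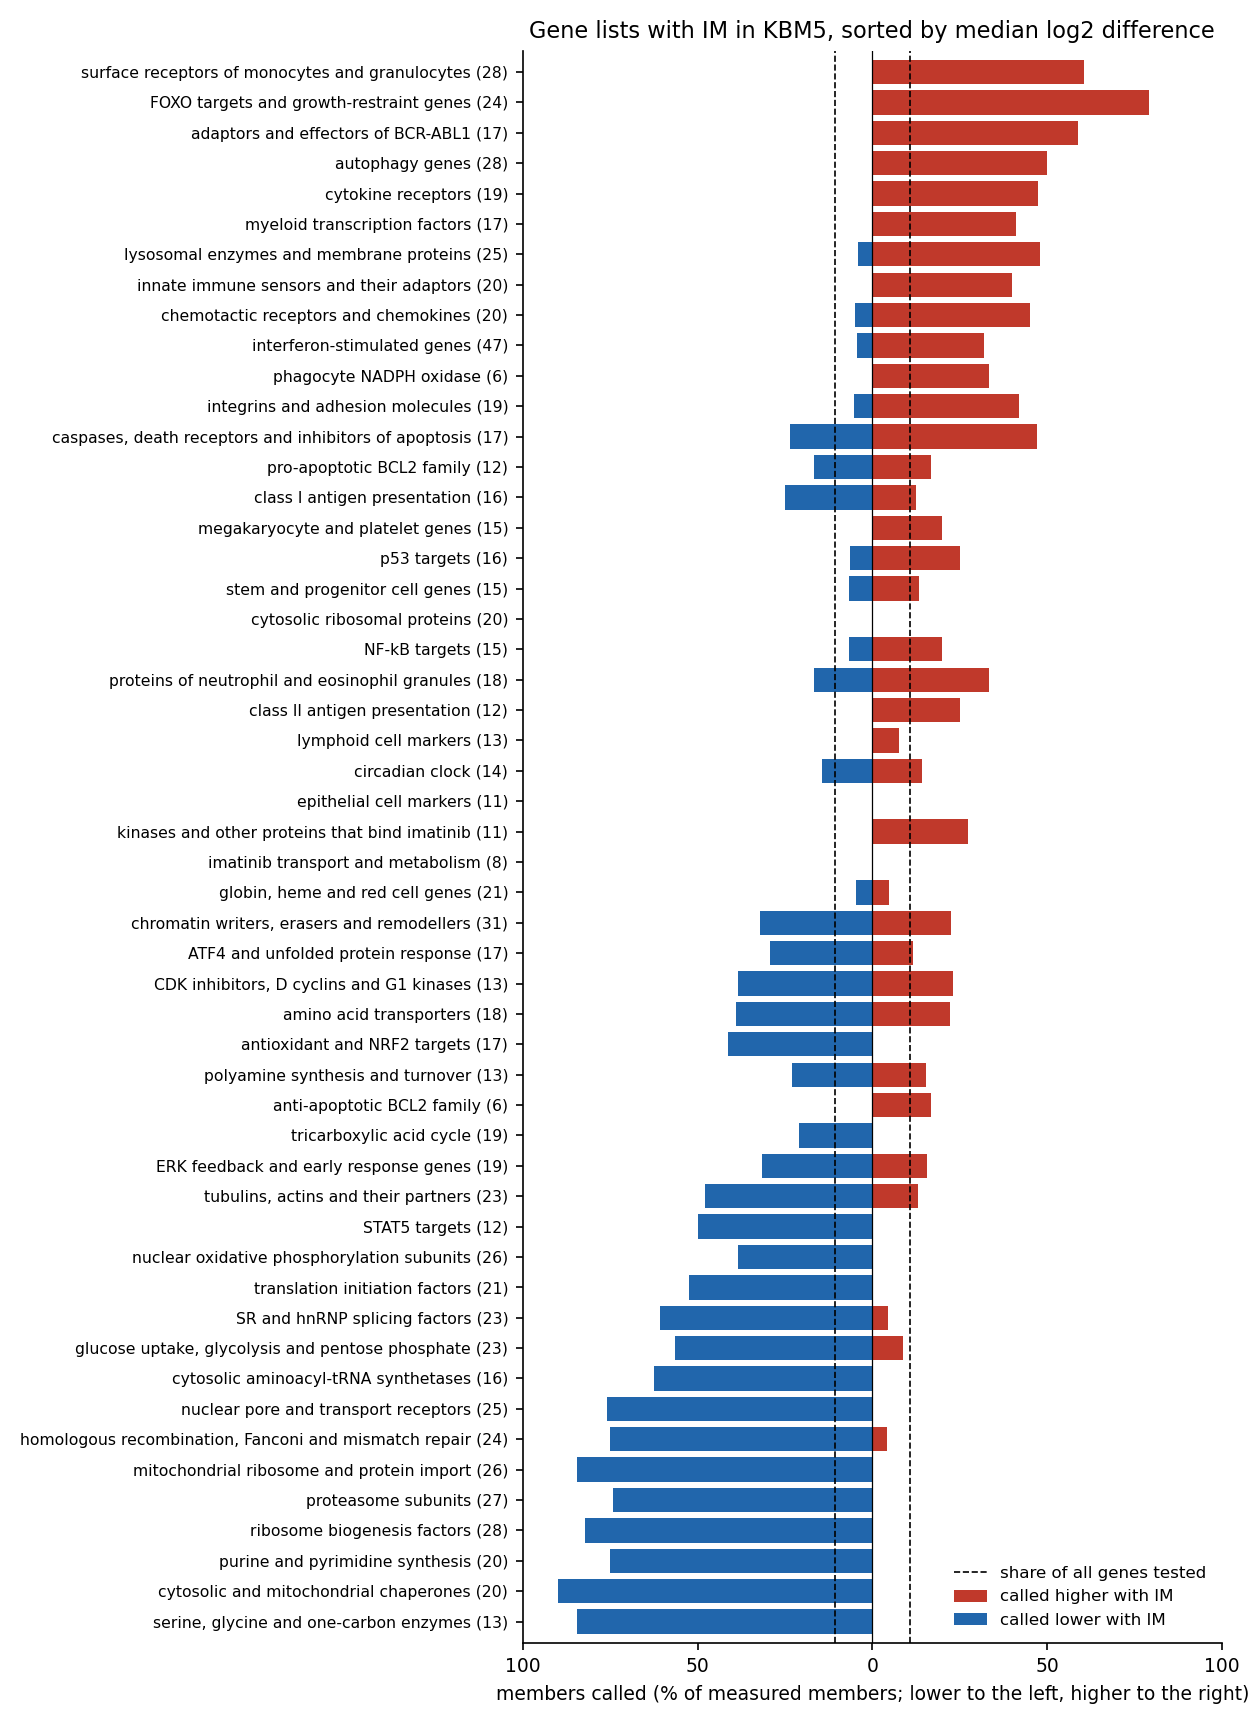
Share of the measured members of 52 gene lists called with IM in KBM5, sorted by the median difference, with the number measured after each name. Red bars to the right give the percent called higher, blue bars to the left the percent called lower, and dashed lines the 10.8% and 10.6% called among all genes tested. Myeloid surface receptors and FOXO targets lead at the top, serine enzymes and chaperones at the bottom, and the cytosolic ribosomal proteins have no bar.

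The response of KBM5 was set against that of K562, which had the same treatments, by the difference of the IM effects in the same fit. In K562, 944 genes (5.34%) were called higher and 1424 (8.05%) lower. The effect in KBM5 was called above that in K562 for 929 genes (5.25%) and below it for 867 (4.90%). The 1796 calls of a difference numbered 611 without the K562 IM or control array and 718 without the K562 combination or OR21 array. Of the genes called higher in KBM5, 618 (32.3%) were also called above K562, and of those called lower 611 (32.7%) below it. Calls in the same direction in both lines numbered 317 higher and 651 lower, and calls in opposite directions 79 higher in KBM5 and 29 lower in KBM5.

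Which groups differed between lines can be read from the same counts. For myeloid surface receptors, 15 of 28 had a difference called above K562, where 0 were called higher and 3 lower. No K562 array read above background for CSF1R, MS4A6A, CD86, CSF3R or CLEC12A. For these genes the call sets a rise in KBM5 beside a gene not detected in K562, where a fall could not be seen. For cytokine receptors the count above K562 was 9 of 19. For red cell genes 18 of 21 had a difference called below K562, where 18 were called higher. For G1/S genes the count below K562 was 40 of 46. For FOXO targets 3 of 24 differed above K562 and 1 below it, and for ribosome biogenesis factors 2 above and 1 below, of 28. No difference called does not show that the lines responded alike.

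Among genes above background on all 8 arrays, the largest positive difference was in FCGR2A, an activating Fc receptor, with an effect of 1.12 ± 0.24 in KBM5 and -4.81 ± 0.24 in K562, a difference of 5.93 ± 0.34 (adjusted p = 3.26e-05). Its paralog FCGR2C followed, with 0.81 ± 0.26 and -4.06 ± 0.26, and their probes may share transcripts. The KBM5 effect of FCGR2C itself was not called with any 1 array left out (adjusted p up to 0.233), nor that of FCGR2A without the combination or OR21 array (0.0696). The calcium-binding protein gene S100A11 had 1.46 ± 0.29 in KBM5, a call lost without the IM or control array (adjusted p = 0.0702), and -3.23 ± 0.29 in K562, and the transcription factor gene ETS2 2.26 ± 0.23 and -1.89 ± 0.23. On the other side, the glucose transporter SLC2A1 had -2.75 ± 0.28 in KBM5 and 1.57 ± 0.28 in K562, a difference of -4.33 ± 0.40 (adjusted p = 0.00025). The nucleoside transporter SLC29A1 had -2.99 ± 0.33 and 0.91 ± 0.33, the ornithine aminotransferase OAT -1.20 ± 0.27 and 2.32 ± 0.27, and the acetyl-CoA acetyltransferase ACAT2 -4.29 ± 0.33 and -0.62 ± 0.33, each in the order KBM5 and K562. The KBM5 call of OAT was lost without the IM or control array (adjusted p = 0.102). TFRC had -3.44 ± 0.25 in KBM5 and 0.21 ± 0.25 in K562. CALCOCO1 had 3.23 ± 0.23 and 2.41 ± 0.23, SRM -3.72 ± 0.25 and -3.20 ± 0.25 and SLC2A3 -4.89 ± 0.59 and -6.13 ± 0.59, and these 3 differences were not called (adjusted p = 0.164, 0.441 and 0.437). Since SLC2A3 lay below background with IM and with the combination in KBM5, its difference has no exact size.

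**Figure D5:**
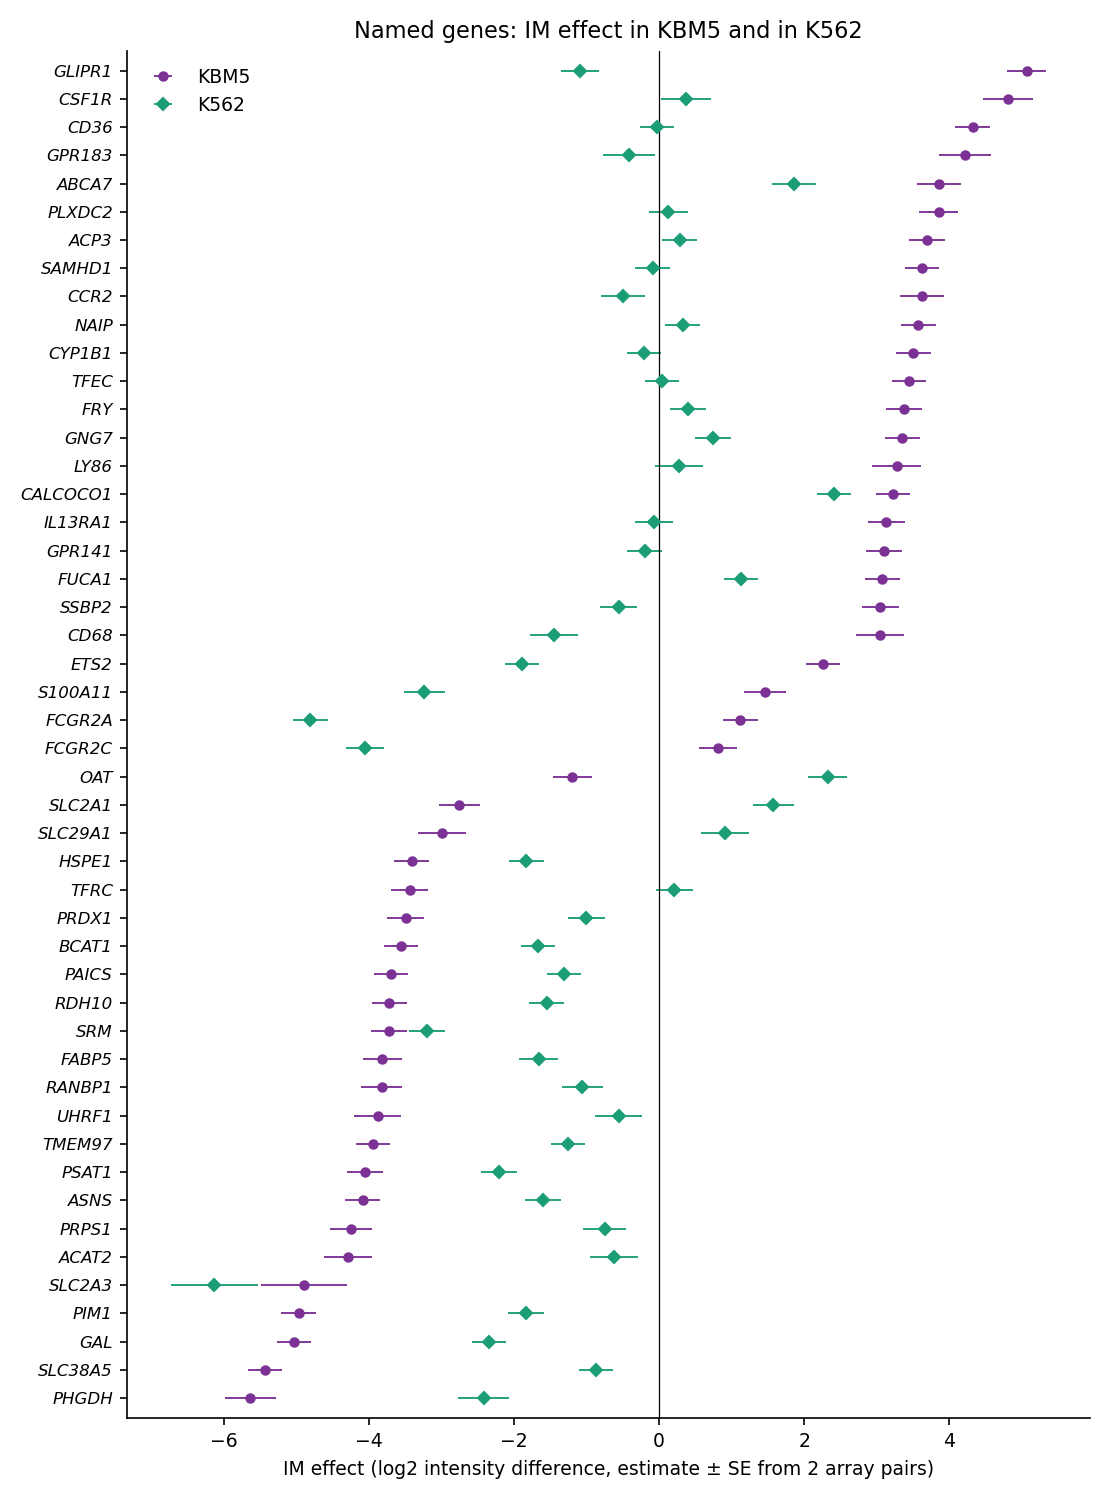
IM effect on each of 48 named genes in KBM5 (purple circles) and K562 (green diamonds), as the log2 intensity difference with IM minus without. Points are estimates from 2 array pairs per line. Bars are ± SE from a spread per gene that is shared by both lines and moderated across genes, so they do not show each line's own spread. The genes were named for their size in KBM5, which puts their purple points far from 0 by choice, or for the difference between lines. Among the latter, the purple point of FCGR2C lies at 0.81 ± 0.26. The green points range from -6.13 ± 0.59 in SLC2A3 to 2.41 ± 0.23 in CALCOCO1.

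The pairs with and without OR21 differed in size. For measured genes called lower, the median was -1.29 in the pair after OR21 and -1.47 in the pair without it, and 717 of 1057 (67.8%) were larger in size without it. For those called higher the medians were 1.16 and 1.20, with 527 of 968 (54.4%) larger without it. Each treatment had 1 array, and an effect of OR21 on the response was not tested here. Among named genes whose pairs lay apart, the log2 difference of ALDOC was -2.65 after OR21 and -4.93 without it, that of LYZ 2.57 after OR21 and 4.37 without it and that of GPR183 4.96 after OR21 and 3.46 without it.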

How the data were processed

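Gene expression was measured on 1 array for each of 8 combinations of cell line and treatment. The deposited values are linear intensities per probe set, made by the authors, and how these were summarized and normalized is not given in the sources used here. From 402 to 420 values per array exceed 65535, the ceiling of a 16-bit scanner, so the deposited scale was transformed before deposit, and fold sizes are those of that scale.

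Of 24351 probe sets, 612 are negative and 2197 positive controls. Of the transcript clusters, 17709 carried 1 gene symbol in the platform annotation and 3739 are unnamed here and were left out. For 20 genes with several probe sets the brightest was used, which gave 17687 genes. Intensities were taken to log2 without further scaling. Background was the 95th percentile of the negative controls of each array. A bound sets the mean of the side above background against the mean, per array of the other side, of the higher of the background and the gene's own value. Probe sets of near-identical paralogs may share transcripts.

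A linear model was fitted across all genes and all 8 arrays with limma 3.58.1 in R 4.3.3. It had a baseline, an OR21 term and an IM term in each line, which leaves 2 residual degrees of freedom per gene. P-values were two-sided and adjusted by Benjamini-Hochberg, with 0.05 as the threshold. The fit was tested on simulated data.

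The text names genes from the 12 largest measured differences each way, 8 genes each way that came up from or went down to background, by the size of the bound, up to 5 called members per list, the 5 largest differences between lines each way and genes whose pairs disagreed by at least 2-fold. MPO was added as a marker after its values were seen. Gene lists, members and rules were chosen with earlier results of these data known. List members without a match by symbol were not used.

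Promoters are from RefSeq (14250 genes tested had one). The alternatives were quantile scaling, median centring, a filter on dim genes, a trended robust fit, an offset of 16, the mean over probe sets, KBM5 alone, a model with an OR21 by IM interaction, other thresholds and each array left out.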

Additional observations from a re-analysis of the deposited data

Results flagged for a closer look

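The IM effect differed between the lines for 106 of the 151 genes given with values above, by limma's test of the difference itself (adjusted p under 0.05). Values here are log2 differences of the effects, KBM5 minus K562. The genes were named for their size in KBM5 or for this difference, so that their count says nothing of other genes. Where a gene was at background on some arrays, the size is not exact.

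Among genes of myeloid cells and immunity with a called difference, the effect in KBM5 was above that in K562 except in PRG2. Some of them were not detected above background on any K562 array, such as GPR183, CCR2, CD36, TLR4, NLRP3 and NCF4. Others, such as FCGR2A, FCGR2C, CD68, MYD88, CST3 and LYZ, exceeded it on each K562 array. For surface receptors the difference was 5.93 in FCGR2A, 4.87 in FCGR2C, 4.62 in MS4A6A, 4.50 in CD68, 4.43 in CSF1R, 4.35 in CD36, 3.63 in CSF3R, 3.27 in CD86 and 3.01 in CLEC12A. For chemotactic and related receptors it was 4.63 in GPR183, 4.12 in CCR2, 2.61 in PTAFR and 2.36 in CX3CR1. For sensors and adaptors it was 3.25 in NAIP, 3.23 in TLR6, 1.37 in TLR4, 3.00 in LY86, 2.73 in MYD88 and 1.83 in NLRP3. For cytokine receptors it was 5.67 in IL10RA, 3.21 in IL13RA1, 1.61 in IL6R and 2.65 in IL7R, which was at background in KBM5. For granule and oxidase genes it was 4.07 in LYZ, 1.99 in CST3 and 2.04 in NCF4, against -2.86 in PRG2. Other immune genes were GLIPR1 (6.16), SAMHD1 (3.71), PECAM1 (3.21), HLA-E (2.54), NFKBIA (2.39), IRF9 (1.88) and SAMD9 (1.75).

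Signalling, death and transcription genes went both ways. The difference was positive in S100A11 (4.69), ETS2 (4.15), TFEC (3.41), BCL6 (2.73), FOS (2.41), LYN (2.93), FES (2.55) and CISH (1.98), and in CFLAR (3.00), MCL1 (2.89), CASP8 (2.37) and BMF (1.67). It was negative in PIM1 (-3.13), DUSP6 (-4.04), CCND3 (-2.18), CDK4 (-2.34) and BNIP3 (-2.62). Lineage genes gave 2.61 in THBS1, 1.61 in NFE2, 1.53 in GATA2, 2.36 in KRT8 and -2.29 in ERMAP. Of these CISH and GATA2 fell further in K562, and KRT8 was not called in KBM5.

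Genes of autophagy, lysosome, stress and chromatin with a positive difference were GABARAPL1 (2.98), SQSTM1 (1.80), FUCA1 (1.95), SLC36A1 (1.5), ERN1 (2.22), NR1D2 (1.21) and TET2 (1.92). Chromatin and repair genes with a negative one were CHEK1 (-3.97), EXO1 (-3.89), UHRF1 (-3.32) and EZH2 (-2.06).

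In metabolism and protein making the differences of the genes named here were negative. The amino acid transporter SLC36A1, given above, went the other way (1.5). Over all 18 amino acid transporters measured, 5 differences were called above K562 and 1 below it. For transporters the value was -4.56 in SLC38A5, -4.33 in SLC2A1, -3.90 in SLC29A1, -3.65 in TFRC and -1.68 in SLC22A4, which was not called in KBM5. For amino acid and nucleotide enzymes it was -3.22 in PHGDH, -1.84 in PSAT1, -1.94 in MTHFD2, -2.49 in ASNS, -1.89 in BCAT1, -3.52 in OAT, -3.49 in PRPS1, -1.88 in PPAT and -2.39 in PAICS. For other enzymes it was -3.67 in ACAT2, -2.69 in ALDOC, -2.15 in ATP5MC1 and -2.49 in PRDX1. For translation, folding, transport and structure it was -2.55 in AARS1, -1.31 in EIF4EBP1, -1.25 in XBP1, -1.58 in HSPE1, -1.65 in HSPD1, -1.70 in HSPH1, -1.36 in PSMD14, -2.76 in RANBP1 and -2.64 in TUBB.

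Among genes in none of the lists the difference was positive in PLXDC2 (3.72), CYP1B1 (3.71), SSBP2 (3.60), ACP3 (3.41), GPR141 (3.30), FRY (2.97), GNG7 (2.61) and ABCA7 (1.99). It was negative in GAL (-2.69), TMEM97 (-2.69), RDH10 (-2.17) and FABP5 (-2.15).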

How the results depend on the processing

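No paired analysis was possible because each group has 1 array, so replicate numbers pair no arrays, and the treatment pairs are the design itself. With 1 array per treatment, the spread rests on 2 pairs per line. The 3780 genes called for IM in KBM5 numbered 2722 to 3245 with 1 array left out and 3001 to 4192 under the other alternatives. Centring moved the median of all genes to 0.16 log2, against 0.03 as deposited, and 60.5% of calls were then higher, against 50.6%. The 1796 calls of a difference between lines numbered 611 to 1804 with 1 array left out, with the 2 lowest counts for K562 arrays. The 1979 genes that differed at least 2-fold in both pairs were 3770 at 1.5-fold and 820 at 3-fold. Of 56 list medians 54 kept their sign under quantile scaling and centring, the exceptions being imatinib targets and imatinib transport.

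Of 145 called genes named with values, 128 stayed called with each KBM5 array left out, 136 stayed called under the other alternatives, and none reversed. Calls lost with a KBM5 array left out are given above. MPO was also lost with centring, and ERMAP and FLT3 with the offset. With the interaction model, with KBM5 alone or with any K562 array left out, ABL1 and FCGR2C were lost. The interaction model also lost CDKN1B, CEBPA, FLT3, IRF8, MCL1 and MPO. Leaving out a KBM5 array removes its pair from the KBM5 estimate, and the pairs that give the spread are then those of K562. Leaving out a K562 array changes the spread and not the KBM5 estimate. Why single calls were lost was otherwise not tested.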
